A study of Homo sapiens with 15 samples.

Results

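The genes described here encode the machinery that carries proteins between the endoplasmic reticulum (ER) and the Golgi apparatus: subunits of the COPI and COPII coats, the p24 family, cargo receptors, ARF GTPases, golgins and other tethers, and SNAREs. They are 58 genes, chosen by symbol from a list written for this purpose, out of 59608 gene symbols in the table. All 58 averaged 10 or more normalised read counts across the libraries and were tested, among 15233 genes that did so. RNA came from pooled spheroids of MDA-MB-231, a human breast cancer line of mesenchymal character that grows without oestrogen or progesterone receptors. Cells were left for 72 h in 96-well plates that prevent attachment, where they gather into spheroids, and were then treated for 24 h. The treated groups had 0.5, 5, 50 or 500 nM of ZJ-101, a truncated synthetic relative of superstolide A, which comes from a marine sponge. The control group had 0.1% DMSO, the vehicle. Each of the 5 groups had 3 libraries, 1 plate of pooled spheroids and loose cells each, and the series asks how the response of one line changes with dose. Because whole pools were sequenced, a lower count can come from fewer cells of a kind or from less RNA per cell, and these cannot be told apart.

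The libraries held 7773325 to 10065633 reads in genes, and 22031 to 22937 genes were detected in each. The genes looked up as high in the line (VIM, CD44, ZEB1, AXL, MET and LGALS1) had at least 572 normalised counts in every library. Of those looked up as absent, PGR and KRT20 were at 0, ESR1 reached 1.89 and CDH1 ranged from 3.61 to 20.8. Of 6 blood and endothelial markers, PECAM1 ranged from 109 to 215 and the other 5 reached at most 5.41. The summed normalised counts of 14 fibroblast markers reached 5892 in 0.5 nM replicate 2, 4428 in 5 nM replicate 2 and 4505 in 500 nM replicate 1. In the other libraries they were 1639 to 1803 in DMSO, 1654 and 1914 at 0.5 nM, 1875 and 1429 at 5 nM, 782 to 839 at 50 nM, and 837 and 951 at 500 nM. The sums of all 50 nM libraries and of 500 nM replicates 2 and 3 thus lay below every DMSO library. Of the 14 markers, 9 passed the filter on low counts. PDGFRB, COL6A3 and FBN1 fell at both 50 and 500 nM and none of the 9 rose. Of all genes tested, 9.66% fell at 50 nM and 16.2% at 500 nM. DCN, POSTN, THY1, MXRA5 and ASPN were at 0 in all DMSO libraries. Without the 3 libraries with the highest sums the counts of members called were 11 higher and 26 lower at 500 nM and 18 higher and 10 lower at 50 nM, where all libraries gave 13 and 27, and 18 and 10. In that setting 2237 of all 15233 genes tested were higher and 2229 lower at 500 nM (29.3% called). At 50 nM 1664 were higher and 1472 lower (20.6% called). The part of the fibroblast transcripts in the members' changes was otherwise not tested.

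Coat proteins bend membrane into vesicles and pick what goes into them. COPII forms on the ER and sends cargo forward, COPI forms on the Golgi and the intermediate compartment and returns cargo, and both are started by a small GTPase that its exchange factor loads with GTP. Tethers such as golgins then catch the vesicle and SNAREs fuse it, and in secretory cells this set of genes is known to be adjusted together with the folding capacity of the ER.

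Few of the 58 genes were called at the low doses, and at the high doses members were called in both directions, with more lower than higher at 500 nM. At 0.5 nM no member was called, by limma (2 members, GOLGB1 and HID1, had an unadjusted p below 0.05), by edgeR (4 at an unadjusted p below 0.05) or by DESeq2 (2). Of all genes tested, 0.0656% were higher and 0.00656% lower. At 5 nM 1 member was higher and 3 were lower than in DMSO, where 3.63% and 3.28% of all genes tested were. At 50 nM 18 members rose and 10 fell (10.9% and 9.66% of all genes), and at 500 nM 13 rose and 27 fell (16.2% of all genes in each direction). A call is an adjusted p below 0.05 from limma, with Benjamini-Hochberg adjustment over all genes tested. Values given per library here are normalised read counts in order of replicate, and values followed by an SE are log2 fold changes. Between neighbouring doses, 2 members rose and 2 fell from 0.5 to 5 nM (3.69% and 3.37% of all genes), 14 rose and 7 fell from 5 to 50 nM (9.51% and 8.96%), and 2 rose and 24 fell from 50 to 500 nM (5.65% and 7.04%). Leaving out 1 library moved the counts of the first of these steps to between 0 and 3 higher and between 1 and 3 lower, with the changes coming without 0.5 nM replicate 1, 2 or 3 or 5 nM replicate 1 or 3. The median log2 fold change of the members at 500 nM was -0.081 against DMSO and -0.080 against 50 nM, where the medians over all genes tested were -0.00020 and 0.0036. Going up the 4 doses, the libraries of 6, 12, 37 and 40 members did not overlap those in DMSO (12.4%, 21.2%, 32.9% and 41.4% of all genes tested). Between neighbouring doses, from low to high, this held for 16, 31 and 34 members (22.9%, 31.8% and 26.5%). An F-test over the 5 groups called 45 of the 58, and 39% of all genes tested. Together the members took 0.850% to 0.859% of all normalised counts at 500 nM, 0.913% to 0.921% at 50 nM and 0.894% to 0.904% in DMSO, so the 500 nM libraries lay below and the 50 nM libraries above every DMSO library. Along the 12 treated libraries, the slope of log2 count per 10-fold dose was positive and called in 9 members and negative in 24 (14% and 13.9% of all genes tested). The steepest slopes were 0.58 in HID1 and -0.35 in COPZ2, followed by -0.33 in TMED9 and -0.29 in TMED3. Without the 3 libraries richest in fibroblast transcripts, 8 slopes of members were positive and called and 18 negative, where 1537 and 1528 of all genes were (20.1% called in either direction).

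**Figure D1:**
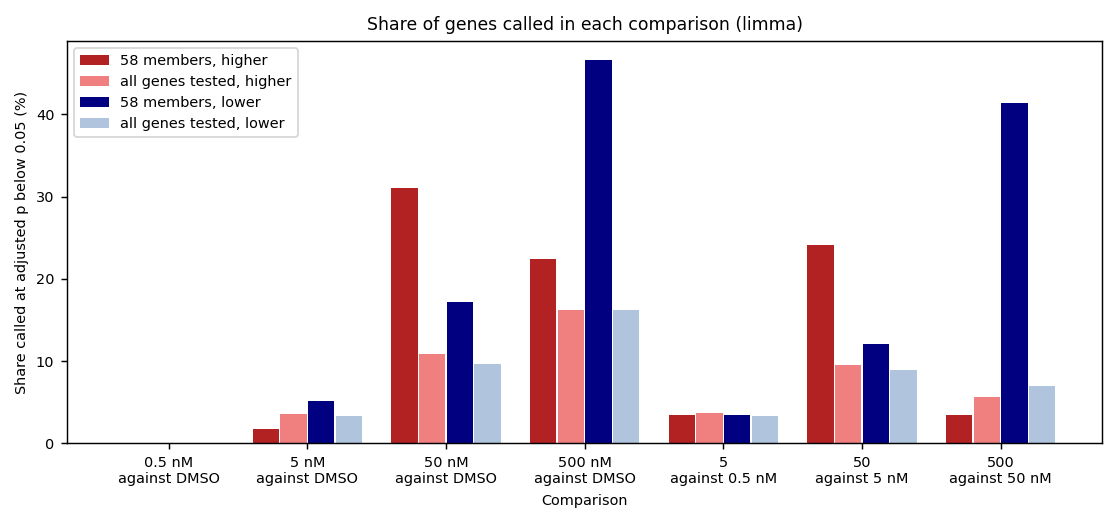
Share of genes called at an adjusted p below 0.05 (y axis, percent) in each of 7 comparisons (x axis), for the 58 members and for all genes tested, higher and lower separately. The dark blue bar of the 58 members reaches 46.6% at 500 nM against DMSO, where 16.2% of all genes were lower, and the step from 50 to 500 nM has 24 members lower and 2 higher.

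**Figure D2:**
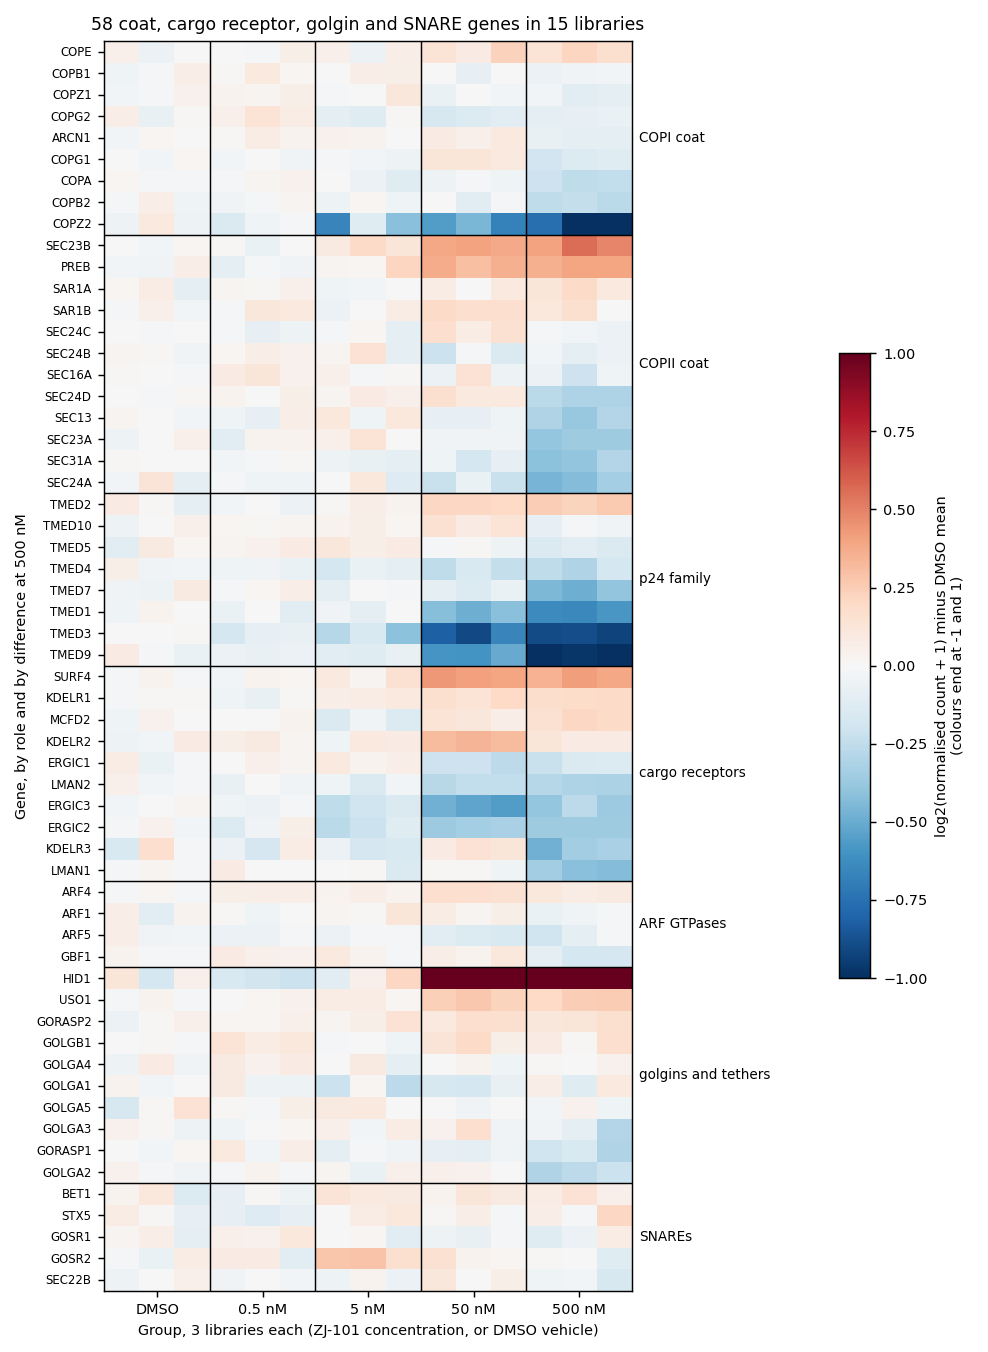
Each row is 1 of the 58 genes, grouped by role and ordered by its difference at 500 nM, and each column is 1 of the 15 libraries, ordered by dose. Colour gives log2(normalised count + 1) minus the mean of the 3 DMSO libraries. The columns of DMSO and 0.5 nM are pale, HID1 is dark red at 50 and 500 nM, and TMED9, TMED3 and COPZ2 are dark blue at 500 nM.

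Some genes of this kind are known to be induced through promoter elements when the ER or the Golgi is under load, and the promoters were read for elements known from those responses. RefSeq (GRCh38.p14) gave a promoter of 250 bases before to 50 after the start for 49 of the 58 members (65 promoters, since 10 members have several starts). On either strand, the unfolded protein response element TGACGTGG was in a promoter of 12 of the 49 (24.5%), against 1.2% of the 10375 tested genes with a promoter. The Golgi apparatus stress element ACGTGGC, which shares ACGTGG with it, was in 21 of 49 (42.9%), against 5.6%. One or the other was in 24 of 49 (49.0%), against 6.23%. The ER stress elements (CCAAT, any 9 bases, CCACG; and ATTGG, any base, CCACG) and the amino acid response element (TGATG, any base, AAT) were in none of the members' promoters, where they were in 0.154%, 0.135% and 0.704% of tested genes. The sterol element TCACCCCAC was found in 1 member (COPZ2, 2.04%, against 0.52%), and the lysosomal element TCACGTGA in 1 (GOSR2, 2.04%, against 2.24%). The following promoters, in GRCh38.p14, are printed because they show the element beside a gene that fell from 50 to 500 nM, and SEC23B because it is the paralog of SEC23A and rose at 50 and 500 nM. They run 5′ to 3′ along the gene's strand, with 250 bases before the start and 50 after it, and capitals mark TGACGTGG and ACGTGGC read on either strand. They lie at chr1:160343201-160343500 on the minus strand (COPA), chr3:139389598-139389897 on the minus strand (COPB2, the first of its 2 starts), chr14:39103186-39103485 on the minus strand (SEC23A), chr5:134648535-134648834 on the plus strand (SEC24A), chr22:38467846-38468145 on the plus strand (KDELR3) and chr20:18507298-18507597 on the plus strand (SEC23B, the first of its 2 starts).
COPA: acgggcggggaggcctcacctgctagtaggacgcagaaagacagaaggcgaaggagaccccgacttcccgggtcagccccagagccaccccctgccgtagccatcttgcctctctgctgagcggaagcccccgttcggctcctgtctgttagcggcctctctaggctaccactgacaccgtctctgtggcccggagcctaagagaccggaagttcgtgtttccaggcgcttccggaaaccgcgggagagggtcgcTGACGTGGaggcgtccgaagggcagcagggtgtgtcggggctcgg
COPB2: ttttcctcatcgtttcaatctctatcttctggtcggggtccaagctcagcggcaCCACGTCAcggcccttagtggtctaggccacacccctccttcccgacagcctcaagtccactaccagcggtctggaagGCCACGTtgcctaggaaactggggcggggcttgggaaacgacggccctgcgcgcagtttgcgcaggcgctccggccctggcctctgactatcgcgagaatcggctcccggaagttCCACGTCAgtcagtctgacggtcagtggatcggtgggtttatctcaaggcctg
SEC23A: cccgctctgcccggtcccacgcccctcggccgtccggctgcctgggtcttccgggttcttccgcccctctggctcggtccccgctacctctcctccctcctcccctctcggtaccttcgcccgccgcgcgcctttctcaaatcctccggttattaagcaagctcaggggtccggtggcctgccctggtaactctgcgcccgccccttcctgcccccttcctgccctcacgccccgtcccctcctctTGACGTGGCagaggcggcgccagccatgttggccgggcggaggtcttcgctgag
SEC24A: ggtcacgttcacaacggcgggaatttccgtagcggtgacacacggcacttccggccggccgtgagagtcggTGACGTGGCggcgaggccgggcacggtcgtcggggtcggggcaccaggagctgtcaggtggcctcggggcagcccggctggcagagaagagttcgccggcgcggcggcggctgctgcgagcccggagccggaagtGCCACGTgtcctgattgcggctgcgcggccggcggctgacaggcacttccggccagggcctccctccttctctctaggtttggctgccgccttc
KDELR3: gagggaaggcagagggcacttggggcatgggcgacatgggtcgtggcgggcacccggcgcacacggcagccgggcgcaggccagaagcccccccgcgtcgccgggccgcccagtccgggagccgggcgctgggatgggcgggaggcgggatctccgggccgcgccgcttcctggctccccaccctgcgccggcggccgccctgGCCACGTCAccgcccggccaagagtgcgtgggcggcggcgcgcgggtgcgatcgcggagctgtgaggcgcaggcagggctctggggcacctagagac
SEC23B: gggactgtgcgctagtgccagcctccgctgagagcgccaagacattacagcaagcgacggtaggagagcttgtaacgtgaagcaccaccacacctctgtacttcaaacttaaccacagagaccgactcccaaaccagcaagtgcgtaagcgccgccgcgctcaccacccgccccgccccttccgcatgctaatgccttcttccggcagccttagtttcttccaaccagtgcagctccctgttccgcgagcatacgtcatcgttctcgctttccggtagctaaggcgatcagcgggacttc

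Counted from the start, the first base of TGACGTGG or its reverse complement was at 6 in COPA, at -3 and at -196 in COPB2, at -4 in SEC23A, at -179 in SEC24A and at -46 in KDELR3. Of the 24 members with either element, 15 fell and none rose from 50 to 500 nM (median log2 fold change -0.17), and of the 25 members whose promoters held neither, 6 fell and 1 rose (median -0.038). Among all tested genes with a promoter, 11.5% of the 646 with either element and 7.63% of the 9729 with neither fell at that step. The shares that rose were 5.73% and 6.33%. At 500 nM against DMSO, 4 of the 24 members with either element rose (SURF4, TMED2, GORASP2 and SAR1A, each with ACGTGGC) and 14 fell. The promoters of these 4 are not printed here. Of the 25 with neither, 5 rose and 9 fell. Among all tested genes with either element 20.7% rose and 19.3% fell in that comparison, against 17.4% and 17.5% of those with neither. The 12 members with TGACGTGG are SEC24A, ARF1, GOLGA5, KDELR3, GBF1, STX5, COPB1, COPA, COPB2, SEC16A, SEC23A and GOLGA1. From 50 to 500 nM 8 of them fell and none rose. The calls of SEC16A (-0.12, limma adjusted p = 0.048), ARF1 and SEC24A at this step were each lost when some single library was left out. Of all 124 tested genes with TGACGTGG, 18.5% fell and 3.23% rose at that step, and of the 10251 without it 7.74% fell and 6.33% rose. At 50 nM against DMSO, none of the 12 was called, and 13 of the 37 members without it rose and 7 fell. Of all tested genes with TGACGTGG, 19.4% rose and 5.65% fell in that comparison, against 11.9% and 10.8% of those without it. These counts describe letters in fixed windows and were not tested, and for 9 members, among them HID1 and TMED9, no promoter was read.

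Several subunits of COPI, or coatomer, were lower at 500 nM, and few were called at 50 nM. Of its 9 genes, 1 rose and 5 fell at 500 nM against DMSO (16.2% of all genes tested each way). At 50 nM 2 rose and 1 fell (10.9% and 9.66%), and from 50 to 500 nM 5 fell and none rose (7.04% and 5.65%). COPA and COPB2 encode the large cage-forming subunits alpha and beta prime. COPA held 3000.2, 2927 and 2932 in DMSO and 2716 to 3046 over the 6 libraries at 0.5 and 5 nM. The counts were 2856, 2922 and 2869.7 at 50 nM and 2553, 2477 and 2496 at 500 nM. The 3 libraries at 500 nM lay below the other 12, and COPA fell by 0.24 on the log2 scale against DMSO (SE 0.033, adjusted p = 1.9e-09). COPB2 held 1897, 2014 and 1874 in DMSO and 1862 to 1968 over the 6 libraries at 0.5 and 5 nM. The counts were 1931, 1782 and 1898 at 50 nM and 1614, 1631 and 1596 at 500 nM, with the same separation and a log2 fold change of -0.26 (SE 0.038, adjusted p = 1.1e-08). On the opposite strand, exons of MRPS22 cover 34.1% of the exonic sequence of COPB2, and the strand setting of the counting is not given.

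The gamma subunit, which binds cargo and the zeta subunit, is made from 2 genes. COPG1 held 1994, 1953 and 2013 in DMSO and 1921 to 1985 over the 6 libraries at 0.5 and 5 nM. The counts were 2163, 2160.4 and 2125 at 50 nM and 1744, 1805 and 1831 at 500 nM. It was highest in the 50 nM libraries and lowest in the 500 nM libraries, with neither set overlapping DMSO. Its log2 fold changes were 0.11 (SE 0.036, adjusted p = 0.014) at 50 nM, -0.15 (SE 0.036, adjusted p = 4.7e-04) at 500 nM and -0.26 (SE 0.036, adjusted p = 4.5e-09) for the step between them. The call at 50 nM was lost without DMSO replicate 2 or without 50 nM replicate 1 (adjusted p up to 0.061), and the other 2 calls were not lost without any 1 library. COPG2 held 537, 487 and 516 in DMSO and 472 to 565 over the 6 libraries at 0.5 and 5 nM. The counts were 458, 466 and 474 at 50 nM and 478, 485 and 488 at 500 nM. COPG2 was called against DMSO at no dose (-0.084 at 500 nM, adjusted p = 0.32).

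The zeta subunit, which joins gamma in the inner part of the coat, also has 2 genes. COPZ2, at low counts, held 67.5, 75 and 67.3 normalised counts in DMSO, 63.1, 67.7 and 69.4 at 0.5 nM and 43.9, 64.1 and 52.1 at 5 nM. The counts were 47, 50.7 and 43.4 at 50 nM and 41, 25.5 and 26.4 at 500 nM. Its libraries at 500 nM lay below every library at the other doses, and the log2 fold changes were -0.56 (SE 0.18, adjusted p = 0.015) at 50 nM and -1.18 (SE 0.18, adjusted p = 2.6e-08) at 500 nM. The highest of the 500 nM libraries was replicate 1, in which the fibroblast markers summed to 4505, and without it the log2 fold change at 500 nM was -1.40. The call at 50 nM was lost without DMSO replicate 2 or 50 nM replicate 3 (adjusted p up to 0.07). COPZ1, which carried most of the zeta transcripts, held 1027, 1035 and 1076 in DMSO and 1037 to 1132 over the 6 libraries at 0.5 and 5 nM. The counts were 998, 1050.5 and 1026 at 50 nM and 1025, 973 and 976 at 500 nM. It was not called at any dose (-0.078 at 500 nM, adjusted p = 0.2).

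The remaining COPI genes are ARCN1, COPE and COPB1. The delta subunit, ARCN1, had a log2 fold change of -0.084 (SE 0.031, adjusted p = 0.029) at 500 nM, a call that was lost without any 1 of 5 of the 6 libraries compared (adjusted p up to 0.088), and fell from 50 to 500 nM, by 0.16 (adjusted p = 2.9e-05), a call kept without any 1 library. COPE, the epsilon subunit, was the gene of the coat with a positive call at 500 nM, with log2 fold changes of 0.15 (SE 0.054, adjusted p = 0.037) at 50 nM and 0.17 (SE 0.054, adjusted p = 0.0081) at 500 nM. The call at 50 nM was lost without DMSO replicate 2 or 3 or 50 nM replicate 1 or 3 (adjusted p up to 0.24). Without DMSO replicate 2 or 500 nM replicate 2 the call at 500 nM was lost (adjusted p up to 0.057). COPB1, the beta subunit, was not called in any comparison with DMSO or between neighbouring doses (between -0.07 and 0.043).

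In COPII, the 2 paralogs of an inner coat subunit went in opposite directions. Of its 12 genes, 5 rose and 1 fell at 50 nM against DMSO (10.9% and 9.66% of all genes tested). At 500 nM 3 rose and 6 fell (16.2% each way), and from 50 to 500 nM 7 fell and none rose (7.04% and 5.65%). SEC23 is the GTPase-activating subunit of the inner coat and is made from SEC23A or SEC23B. SEC23B held 853, 838 and 866 normalised counts in DMSO, 860.2, 812 and 852 at 0.5 nM and 909, 971 and 929 at 5 nM. The counts were 1112, 1129 and 1111 at 50 nM and 1124, 1255 and 1197 at 500 nM. All libraries at 50 and 500 nM lay above all others, with log2 fold changes of 0.39 (SE 0.047, adjusted p = 1.7e-11) and 0.48 (SE 0.047, adjusted p = 5.3e-16), the second a 1.4-fold level. SEC23A held 1024, 1066 and 1099 normalised counts in DMSO, 990, 1086 and 1089 at 0.5 nM and 1100.5, 1168 and 1059 at 5 nM. The counts were 1037, 1037 and 1039 at 50 nM and 814, 832 and 828 at 500 nM. It was within the DMSO range at 50 nM and below every other library at 500 nM, 1.29 times lower than in DMSO with a log2 fold change of -0.37 (SE 0.047, adjusted p = 7.6e-11).

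SEC24 binds the cargo's export signals and has 4 paralogs. SEC24D held 1080.3, 1066 and 1089.8 in DMSO and 1075 to 1141 over the 6 libraries at 0.5 and 5 nM. The counts were 1206, 1155 and 1154 at 50 nM and 892, 870 and 870.4 at 500 nM. At 500 nM all 3 libraries were below all others, with a log2 fold change of -0.30 (SE 0.044, adjusted p = 1.3e-08) against DMSO and -0.42 (SE 0.044, adjusted p = 2.1e-13) against 50 nM. Its difference at 50 nM, 0.12 (SE 0.044, adjusted p = 0.043), was no longer called without any 1 of the 6 libraries compared (adjusted p up to 0.19). SEC24C held 1909, 1879.7 and 1908 in DMSO and 1789 to 1922 over the 6 libraries at 0.5 and 5 nM. The counts were 2129, 2002 and 2113 at 50 nM and 1869.8, 1863 and 1823 at 500 nM. It was above DMSO at 50 nM (0.13, SE 0.037, adjusted p = 0.0045) and fell back from 50 to 500 nM (-0.17, SE 0.037, adjusted p = 2.9e-04), ending -0.036 from DMSO (adjusted p = 0.51). Exons of another annotated gene on the opposite strand cover 42.8% of the exonic sequence of SEC24C. SEC24A, outside the rule for naming but printed above for its promoter, held 504, 561 and 479 in DMSO and 470.2 to 551 over the 6 libraries at 0.5 and 5 nM. The counts were 441, 489.9 and 441 at 50 nM and 371, 379.7 and 406 at 500 nM. It had a log2 fold change of -0.41 (SE 0.065, adjusted p = 6.1e-08) at 500 nM. Its step from 50 to 500 nM, -0.25 (SE 0.065, adjusted p = 0.0037), was lost without 50 nM replicate 2 (adjusted p = 0.073). SEC24B was not called in any comparison with DMSO (-0.061 at 500 nM, adjusted p = 0.49).

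Both genes of the outer cage fell at 500 nM. SEC31A held 2998, 2965 and 2968 in DMSO and 2804 to 2994 over the 6 libraries at 0.5 and 5 nM. The counts were 2889.8, 2631 and 2811 at 50 nM and 2237, 2265 and 2424 at 500 nM, with the 500 nM libraries below all others and a log2 fold change of -0.37 (SE 0.034, adjusted p = 3.8e-17). At 50 nM its difference of -0.10 (SE 0.034, adjusted p = 0.021) was lost without DMSO replicate 1 or 50 nM replicate 2 (adjusted p up to 0.28). SEC13, which is also a nuclear pore protein and was chosen here after its values were seen, held 1062, 1003 and 1068 at 500 nM and 1329.7, 1304 and 1285 in DMSO, a log2 fold change of -0.32 (SE 0.044, adjusted p = 7.9e-10).

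PREB, which starts the coat, rose at both high doses. It encodes the exchange factor that loads SAR1 with GTP on the ER, and held 666, 664 and 712 in DMSO and 638 to 792 over the 6 libraries at 0.5 and 5 nM. The counts were 881, 838 and 869 at 50 nM and 872, 894 and 894 at 500 nM. Its 6 libraries at 50 and 500 nM lay above the other 9, with log2 fold changes of 0.34 (SE 0.052, adjusted p = 7.2e-08) and 0.38 (SE 0.052, adjusted p = 1.1e-09). Of the 2 SAR1 GTPases, SAR1A had 0.14 (SE 0.043, adjusted p = 0.0084) at 500 nM, and SAR1B had 0.17 (SE 0.061, adjusted p = 0.028) at 50 nM and 0.089 (SE 0.061, adjusted p = 0.28) at 500 nM. The calls of SAR1A at 500 nM (without DMSO replicate 3 or 500 nM replicate 2, adjusted p up to 0.15) and of SAR1B at 50 nM (without any 1 of 5 of the 6 libraries, up to 0.097) did not hold. SEC16A, the scaffold of exit sites, had -0.11 (SE 0.043, adjusted p = 0.048) at 500 nM, a call lost without any 1 of 9 libraries, each DMSO library and 500 nM replicate 2 among them (up to 0.43).

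**Figure D3:**
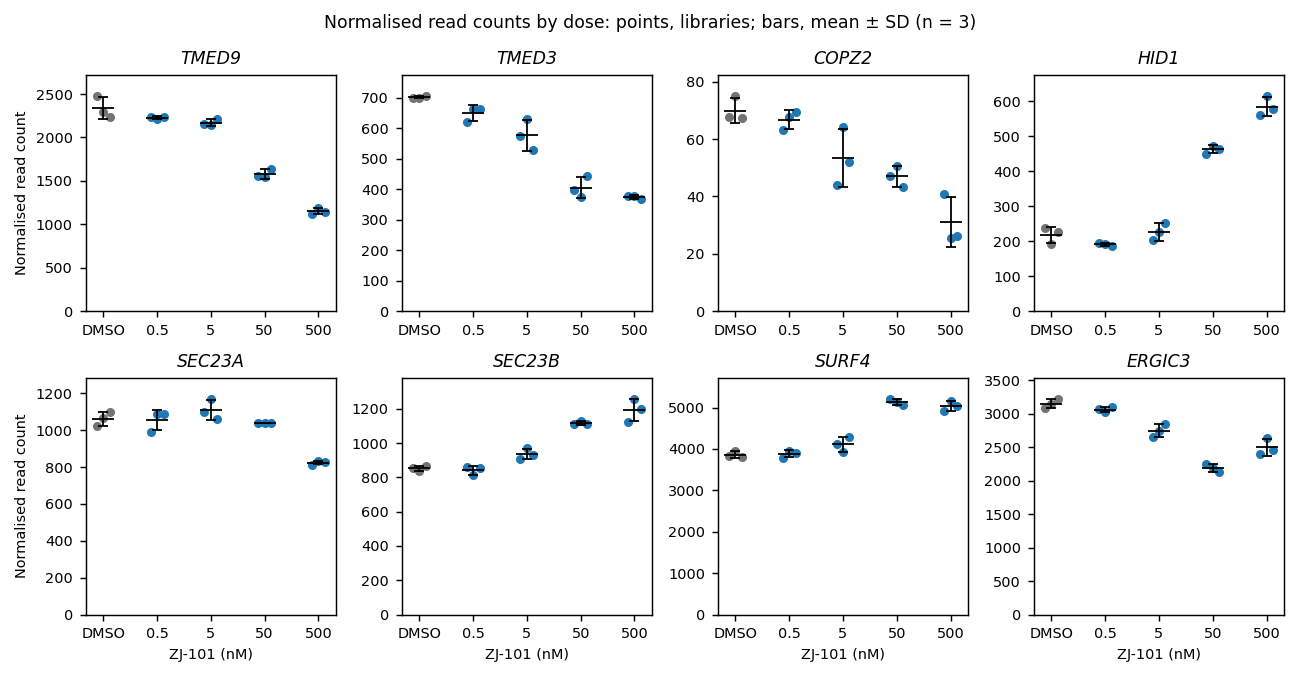
Normalised read counts (y axis, from 0) of 8 members in the 3 DMSO libraries (grey) and the 3 libraries at each dose of ZJ-101 (blue, x axis in nM), with mean and SD in black. TMED9 falls to between 1119.9 and 1186 at 500 nM, HID1 climbs at 50 and 500 nM, SEC23A and SEC23B part at 500 nM, and ERGIC3 is lowest at 50 nM.

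In the p24 family most genes fell at 500 nM. These are small membrane proteins, named TMED, that ride in both coats and sort cargo such as GPI-anchored proteins, working as mixed complexes of different subfamilies. Of 8 genes, 1 rose and 6 fell at 500 nM (16.2% of all genes tested each way), and 2 rose and 4 fell at 50 nM (10.9% and 9.66%). TMED9 (chr5:177592203-177597242, plus strand) held 2476, 2297 and 2233 normalised counts in DMSO, 2237, 2212 and 2236 at 0.5 nM and 2157, 2139.7 and 2217 at 5 nM. The counts were 1553, 1540.4 and 1642 at 50 nM and 1119.9, 1186 and 1148 at 500 nM. No library at 50 or 500 nM overlapped any library at lower doses, and no library at 500 nM overlapped 50 nM. The log2 fold changes were -0.56 (SE 0.038, adjusted p = 1.5e-24) at 50 nM and -1.02 (SE 0.038, adjusted p = 1.4e-44) at 500 nM, 2.03 times lower, and -0.45 (SE 0.038, adjusted p = 1.2e-18) for the step between them.

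TMED3 was the 1 p24 gene called at 5 nM. It held 699, 701 and 706 normalised counts in DMSO, 620.3, 664 and 665 at 0.5 nM and 575, 630.3 and 528 at 5 nM. The counts were 398, 376 and 443 at 50 nM and 377, 379.7 and 369 at 500 nM. All libraries at 0.5 and 5 nM were below DMSO, with no call at 0.5 nM and -0.28 (SE 0.062, adjusted p = 7.2e-04) at 5 nM. TMED3 fell further to -0.79 (SE 0.062, adjusted p = 9.8e-21) at 50 nM and -0.90 (SE 0.062, adjusted p = 1.1e-24) at 500 nM. From 50 to 500 nM the difference was -0.11 (SE 0.062, adjusted p = 0.32), which did not pass the threshold. TMED1 held 613, 647 and 633 in DMSO and 588 to 634 over the 6 libraries at 0.5 and 5 nM. The counts were 469, 449 and 472 at 50 nM and 406, 403 and 422 at 500 nM, so that the 50 nM libraries lay below all lower doses and the 500 nM libraries below those, with -0.44 (SE 0.059, adjusted p = 6.1e-10) and -0.62 (SE 0.059, adjusted p = 1.7e-16) against DMSO. The step between these doses, -0.17 (SE 0.059, adjusted p = 0.032), was lost without 50 nM replicate 1 or 3 or 500 nM replicate 1 or 2 (adjusted p up to 0.11). Exons of DNM2 on the other strand cover 48.3% of the exonic sequence of TMED1, so reads of the 2 genes may not be separable.

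TMED7 held 787, 779 and 861 in DMSO and 755 to 845 over the 6 libraries at 0.5 and 5 nM. The counts were 755, 737 and 773 at 50 nM and 591, 574 and 616 at 500 nM, with a separate and lower set of libraries at 500 nM (-0.44, SE 0.052, adjusted p = 2.7e-12). A read-through gene, TMED7-TICAM2, shares exonic sequence with it on the same strand. TMED4, the paralog of TMED9, also fell. It held 1156, 1083 and 1091 in DMSO and 985 to 1085 over the 6 libraries at 0.5 and 5 nM. The counts were 928, 997 and 939 at 50 nM and 931, 900.2 and 984 at 500 nM, with -0.22 (SE 0.046, adjusted p = 1.1e-04) at 50 nM and -0.24 (SE 0.046, adjusted p = 7.5e-06) at 500 nM. TMED5 held 918, 1055 and 1006 in DMSO and 1012 to 1069.5 over the 6 libraries at 0.5 and 5 nM. The counts were 984, 999.8 and 957 at 50 nM and 898, 918 and 897 at 500 nM. It had -0.13 (SE 0.047, adjusted p = 0.02) at 500 nM, which was not called without any 1 of DMSO replicates 2 and 3 and 500 nM replicates 1 and 3 (adjusted p up to 0.21). Against these, TMED2 rose, with 3011, 2958 and 3049 at 500 nM and 2695, 2558 and 2379 in DMSO (0.24, SE 0.034, adjusted p = 2.4e-09), and TMED10 had 0.12 (SE 0.034, adjusted p = 0.0037) at 50 nM and -0.043 (SE 0.034, adjusted p = 0.36) at 500 nM. TMED2 and TMED10 were chosen here after their values were seen.

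Every one of the 10 cargo receptor genes passed the test at 500 nM, with 4 up and 6 down (16.2% of all genes tested each way). At 50 nM 4 rose and 4 fell (10.9% and 9.66%). SURF4, the receptor that speeds the export of many soluble secreted proteins, held 3828, 3954 and 3801 normalised counts in DMSO, 3791, 3950.5 and 3904 at 0.5 nM and 4122, 3929 and 4282 at 5 nM. The counts were 5200.3, 5133 and 5069.7 at 50 nM and 4915, 5165 and 5049 at 500 nM. The libraries at 50 and 500 nM lay above all others, with 0.41 (SE 0.03, adjusted p = 7.2e-23) and 0.39 (SE 0.03, adjusted p = 1.4e-21). Its small positive difference at 5 nM (0.09, SE 0.03, adjusted p = 0.046) is the single higher call of the 58 at that dose, and it was lost without any 1 of 12 of the 15 libraries (the exceptions were DMSO replicate 2, 5 nM replicate 2 and 50 nM replicate 2; adjusted p up to 0.34).

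ERGIC1, ERGIC2 and ERGIC3 encode membrane proteins that cycle through the ER-Golgi intermediate compartment, and all 3 were lower. ERGIC3 held 3085, 3147 and 3213 normalised counts in DMSO, 3062, 3018 and 3099 at 0.5 nM and 2644, 2746 and 2849.8 at 5 nM. The counts were 2252, 2188 and 2133 at 50 nM and 2402, 2633 and 2450.5 at 500 nM. It fell at 5 nM (-0.20, SE 0.034, adjusted p = 1.2e-05) and was lowest at 50 nM (-0.52, SE 0.034, adjusted p = 1.5e-25). From 50 to 500 nM it rose, by 0.19 (SE 0.034, adjusted p = 1.0e-05), and remained under DMSO at 500 nM (-0.34, SE 0.034, adjusted p = 5.7e-15). ERGIC2 had -0.34 (SE 0.072, adjusted p = 8.1e-05) at 50 nM and -0.35 (SE 0.072, adjusted p = 2.3e-05) at 500 nM, and ERGIC1 had -0.23 (SE 0.044, adjusted p = 2.1e-05) and -0.17 (SE 0.044, adjusted p = 0.0011) (both named after their values were seen).

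LMAN1 is a lectin that with MCFD2 exports blood clotting factors. LMAN1 held 1876, 1933 and 1867 in DMSO and 1712 to 1998 over the 6 libraries at 0.5 and 5 nM. The counts were 1907, 1906 and 1839.6 at 50 nM and 1483, 1417 and 1399 at 500 nM, so its libraries at 50 nM overlapped DMSO and those at 500 nM lay below every other library (-0.40, SE 0.039, adjusted p = 6.1e-16). MCFD2 was higher at 500 nM. Its libraries held 3041, 3169 and 3133 at 500 nM and 2659, 2828 and 2740.2 in DMSO, a rise of 0.18 (SE 0.033, adjusted p = 2.6e-06). MCFD2 had also been among the 3 members lower at 5 nM (-0.10, SE 0.033, adjusted p = 0.04, lost without any 1 of DMSO replicates 2 and 3 and 5 nM replicates 1 and 3, adjusted p up to 0.21). LMAN2, a related lectin, held 2121, 2012 and 2023 in DMSO and 1858 to 2047 over the 6 libraries at 0.5 and 5 nM. The counts were 1696, 1729 and 1734 at 50 nM and 1681, 1654 and 1650.1 at 500 nM, with -0.25 (SE 0.037, adjusted p = 1.9e-08) at 50 nM and -0.30 (SE 0.037, adjusted p = 2.0e-11) at 500 nM.

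The KDEL receptors return escaped ER residents that end in a KDEL-like tail, and their 3 genes were taken as a family after their values were seen. KDELR1 was higher at both 50 and 500 nM, while KDELR2 and KDELR3 rose from 5 to 50 nM and fell from 50 to 500 nM. KDELR1 held 2324, 2369 and 2374 in DMSO, 2638, 2592 and 2701 at 50 nM and 2666, 2678 and 2690.2 at 500 nM, and rose at both doses, with 0.17 (SE 0.034, adjusted p = 4.5e-05) and 0.18 (SE 0.034, adjusted p = 2.6e-06). KDELR2 held 1814, 1839 and 1985 normalised counts in DMSO, 1952, 1996 and 1913 at 0.5 nM and 1824, 2009.8 and 1988 at 5 nM. The counts were 2343, 2380.4 and 2335 at 50 nM and 2044, 1986 and 1987 at 500 nM. It rose at 50 nM (0.33, SE 0.037, adjusted p = 3.5e-12) and fell from 50 to 500 nM (-0.23, SE 0.037, adjusted p = 5.6e-07), and its remaining difference from DMSO of 0.095 (SE 0.037, adjusted p = 0.042) was lost without any 1 of 5 of the 6 libraries (adjusted p up to 0.21). KDELR3 held 338, 422 and 369.6 normalised counts in DMSO, 359, 334 and 394 at 0.5 nM and 359, 334 and 337 at 5 nM. The counts were 398, 414 and 407 at 50 nM and 268, 294 and 299 at 500 nM, with a rise from 5 to 50 nM (0.24, SE 0.074, adjusted p = 0.011), a fall from 50 to 500 nM (-0.50, SE 0.074, adjusted p = 3.5e-08) and a level at 500 nM below DMSO (-0.38, SE 0.074, adjusted p = 7.9e-06).

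**Figure D4:**
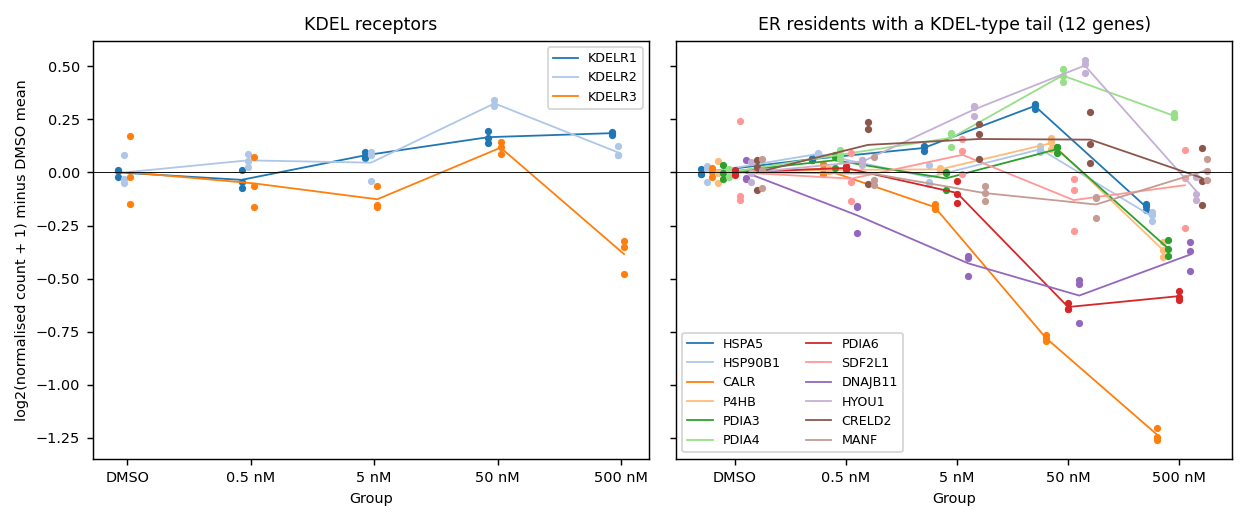
Left, the 3 KDEL receptor genes, and right, 12 genes listed as ER residents with a KDEL-type tail, as log2(normalised count + 1) minus the DMSO mean (y axis) in DMSO and at each dose (x axis). Points are libraries, shifted sideways by gene, and lines join group means. KDELR2 and KDELR3 peak at 50 nM, as do HSPA5, HYOU1, PDIA4, P4HB, PDIA3 and HSP90B1, and CALR falls to its lowest at 500 nM.

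A course of this kind, a called rise from 5 to 50 nM followed by a called fall from 50 to 500 nM, was seen in 4 of the 58 members (COPG1, KDELR2, KDELR3 and SEC24C, 6.9%) and in 110 of all 15233 genes tested (0.722%). With DESeq2 the rise of KDELR3 was not called (adjusted p = 0.056). The opposite course was seen in ERGIC3 and in 67 genes in all (0.44%). Of 12 genes listed as ER residents with a KDEL-type tail, 6 had the first course: HSP90B1, HSPA5, HYOU1, P4HB, PDIA3 and PDIA4. Whether each of the 12, DNAJB11 among them, carries the tail was not checked. In that list 6 genes rose and 4 fell at 50 nM (10.9% and 9.66% of all genes tested). At 500 nM 1 rose and 8 fell (16.2% each way). HSPA5, the main ER chaperone of the heat shock 70 class, held 11507, 11693 and 11717 at 50 nM and 9469, 9315 and 9324 in DMSO (0.31, SE 0.023, adjusted p = 7.2e-23). At 500 nM HSPA5 was at 8407, 8439 and 8278 (-0.16, SE 0.023, adjusted p = 1.6e-09 against DMSO). CALR, a lectin chaperone of glycoproteins, held 17289, 16826 and 17070 normalised counts in DMSO, 17239, 16985 and 17531 at 0.5 nM and 15174, 15375 and 15161 at 5 nM. The counts were 9855, 9927 and 10035 at 50 nM and 7134, 7412 and 7202 at 500 nM, which is a log2 fold change of -1.23 (SE 0.021, adjusted p = 1.9e-74) at 500 nM. PDIA6, a protein disulfide isomerase, held 1918, 1902 and 1959.7 at 500 nM and 2861, 2911 and 2882 in DMSO (-0.58, SE 0.034, adjusted p = 1.6e-29). P4HB, a subunit of prolyl hydroxylase and itself a disulfide isomerase, held 10533, 11064 and 10800 at 500 nM and 14435, 13399 and 13856 in DMSO (-0.36, SE 0.022, adjusted p = 1.9e-28).

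ARF GTPases start COPI, and the 4 genes in this class were ARF1, ARF4, ARF5 and the exchange factor GBF1. At 50 nM 1 rose and none fell (10.9% and 9.66% of all genes tested). At 500 nM 1 rose (ARF4) and 1 fell (GBF1), against 16.2% of all genes each way. ARF1, the most highly expressed of the 58 per kilobase of transcript, held 5242, 4653 and 5116 in DMSO and 4861 to 5426 over the 6 libraries at 0.5 and 5 nM. The counts were 5259.6, 5105 and 5209.7 at 50 nM and 4776, 4888 and 4919 at 500 nM. It was not called at 500 nM (-0.04, adjusted p = 0.36). Its step from 50 to 500 nM, -0.095 (SE 0.031, adjusted p = 0.029), was lost without any 1 of 50 nM replicates 1 and 3 and 500 nM replicates 1 and 2 (adjusted p up to 0.15). ARF4 held 2119, 2169 and 2118 in DMSO and 2183 to 2238 over the 6 libraries at 0.5 and 5 nM. The counts were 2402, 2399 and 2375 at 50 nM and 2298, 2243 and 2275 at 500 nM. It rose at 50 nM (0.16, SE 0.034, adjusted p = 8.1e-05), and its difference of 0.09 (SE 0.034, adjusted p = 0.034) at 500 nM was lost without any 1 of DMSO replicates 1 and 3 and 500 nM replicates 1 and 3 (up to 0.11). ARF5 held 787, 733 and 737 in DMSO and 722 to 747 over the 6 libraries at 0.5 and 5 nM. The counts were 699, 683 and 676 at 50 nM and 656, 704 and 741 at 500 nM, with no call at any dose (-0.11 at 500 nM, adjusted p = 0.12). GBF1, the exchange factor that activates ARF at the early Golgi, held 1321, 1274 and 1282 in DMSO and 1275 to 1380.2 over the 6 libraries at 0.5 and 5 nM. The counts were 1356, 1323 and 1390.5 at 50 nM and 1214, 1143 and 1151 at 500 nM, and the 500 nM libraries were below all others (-0.14, SE 0.042, adjusted p = 0.0039).

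Among the 10 golgin and tether genes 4 rose and none fell at 50 nM (10.9% and 9.66% of all genes tested). At 500 nM 3 rose and 3 fell (16.2% each way). HID1 (chr17:74950742-74973166, minus strand), a peripheral Golgi protein known for its part in forming dense core granules, held 237, 193 and 226 normalised counts in DMSO, 197, 192 and 188 at 0.5 nM and 203, 226 and 252 at 5 nM. The counts were 450.4, 474 and 464 at 50 nM and 560.4, 615 and 578 at 500 nM. The 3 libraries at 50 nM were above all lower doses and the 3 at 500 nM above those, with 1.08 (SE 0.079, adjusted p = 1.2e-22) and 1.42 (SE 0.079, adjusted p = 3.6e-31), the second a 2.67-fold level, and 0.34 (SE 0.079, adjusted p = 7.4e-04) from 50 to 500 nM. At 0.5 nM it was -0.18 (adjusted p = 0.54). Per kilobase of its canonical transcript HID1 ranked 40 of 58 at 500 nM and 57 of 58 in DMSO.

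GOLGA2, the cis-Golgi golgin that USO1 and GORASP1 bind, held 1543, 1487 and 1458 in DMSO and 1429 to 1547 over the 6 libraries at 0.5 and 5 nM. The counts were 1549.7, 1538 and 1489 at 50 nM and 1216, 1245 and 1286 at 500 nM. It fell at 500 nM to below every other library (-0.26, SE 0.041, adjusted p = 5.5e-08). USO1, the tether for vesicles arriving from the ER, held 1073, 1112 and 1071 in DMSO and 1080.2 to 1143 over the 6 libraries at 0.5 and 5 nM. The counts were 1279.9, 1308 and 1267 at 50 nM and 1246, 1284 and 1296 at 500 nM. It rose at both 50 nM (0.24, SE 0.043, adjusted p = 2.3e-06) and 500 nM (0.23, SE 0.043, adjusted p = 3.3e-06). The GRASP proteins link Golgi stacks. GORASP1 held 444, 435 and 450 in DMSO and 416 to 474 over the 6 libraries at 0.5 and 5 nM. The counts were 419, 415 and 431 at 50 nM and 386, 399.6 and 360.1 at 500 nM. It had -0.22 (SE 0.065, adjusted p = 0.0055) at 500 nM, a call lost without 500 nM replicate 3 (adjusted p = 0.057). GORASP2 held 929, 976 and 1004 in DMSO and 982 to 1070.1 over the 6 libraries at 0.5 and 5 nM. The counts were 1037, 1092 and 1082 at 50 nM and 1047, 1055 and 1082 at 500 nM. It had 0.13 (SE 0.046, adjusted p = 0.019) at 500 nM, lost without DMSO replicate 1 or 500 nM replicate 3 (up to 0.13). Exons of WDR48 on the other strand cover 18.3% of the exonic sequence of GORASP1. Among the other golgins, GOLGA1, GOLGA4 and GOLGA5 were not called in any comparison, and GOLGA3 had -0.14 (SE 0.051, adjusted p = 0.029) at 500 nM, which was lost without DMSO replicate 1, DMSO replicate 2 or 500 nM replicate 3 (up to 0.44). GOLGB1 had 0.12 (SE 0.046, adjusted p = 0.045) at 50 nM, lost without any 1 of 5 of the 6 libraries (up to 0.25).

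The 5 SNAREs that fuse ER and Golgi vesicles were not called at any dose against DMSO, by limma, edgeR or DESeq2, and limma gave 1 of them an unadjusted p below 0.05 at 5 nM and none at 50 or 500 nM. Of all genes tested, limma called 20.6% at 50 nM and 32.4% at 500 nM, and the difference of this small class from those shares was not tested. The log2 fold changes of the 5 SNAREs at 500 nM were -0.035 (GOSR1), -0.036 (GOSR2), 0.084 (STX5), 0.087 (BET1) and -0.078 (SEC22B). GOSR2 and STX5 encode SNAREs of the Golgi-facing membrane. GOSR2 held 210.2, 202 and 223 in DMSO and 197 to 258 over the 6 libraries at 0.5 and 5 nM. The counts were 235, 217 and 214 at 50 nM and 213, 212 and 195 at 500 nM. STX5 held 565, 540.1 and 505 in DMSO and 491 to 578 over the 6 libraries at 0.5 and 5 nM. The counts were 542, 562 and 533 at 50 nM and 561, 529 and 619 at 500 nM. BET1 and SEC22B ride on vesicles from the ER. BET1 held 264, 276 and 234 in DMSO and 243 to 282 over the 6 libraries at 0.5 and 5 nM. The counts were 263, 280.3 and 275 at 50 nM and 270.5, 284 and 266 at 500 nM. SEC22B held 925, 957 and 990.4 in DMSO and 920.4 to 978 over the 6 libraries at 0.5 and 5 nM. The counts were 1034, 959.6 and 996 at 50 nM and 928, 938 and 857 at 500 nM. For these 4 genes the libraries at 500 nM overlapped those in DMSO, where 41.4% of all genes tested did not overlap. The 1 limma call of the class, SEC22B from 50 to 500 nM (-0.14, SE 0.048, adjusted p = 0.043), was lost without 50 nM replicate 1, 50 nM replicate 3 or 500 nM replicate 3 (adjusted p up to 0.32). Over the 5 groups, the F-test called 1 SNARE with edgeR and 0 with limma or DESeq2.

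Because paralogs can take each other's place in a coat, the ratio of each pair within a library was compared. Over 17 pairs, 14 had ratios at 500 nM that did not overlap those in DMSO. Of all single genes tested 41.4% did not overlap at this dose, and no such share was computed for gene pairs in general. With 3 libraries against 3 the two-sided exact permutation test cannot go below p = 0.10, and that value (0.121 after adjustment over the 17 pairs) was reached by all 14. The log2 ratio of SEC23A to SEC23B was -0.53 ± 0.063 at 500 nM and 0.32 ± 0.047 in DMSO (SD, n = 3 each), and its libraries stood at -0.47, -0.59 and -0.53 at 500 nM and 0.26, 0.35 and 0.34 in DMSO. SEC23A had the higher count of the pair in every DMSO library and SEC23B in every library at 500 nM, with a log2 ratio of -0.11 ± 0.014 (SD, n = 3) at 50 nM. These counts are not corrected for transcript length. Per kilobase of the canonical transcript, SEC23A and SEC23B had means of 276.55 and 281.64 in DMSO and 214.56 and 393.99 at 500 nM. The ratio of TMED9 to TMED4 was 0.29 ± 0.091 at 500 nM and 1.07 ± 0.034 in DMSO (SD, n = 3 each), and that of COPZ1 to COPZ2 4.99 ± 0.33 at 500 nM and 3.89 ± 0.11 in DMSO (SD, n = 3 each). The ratio of KDELR3 to KDELR1 fell by 0.57 and that of SEC24A to SEC24B fell by 0.35 on the log2 scale. The pairs whose ratios at 500 nM overlapped those in DMSO were ARF4 and ARF1, COPG1 and COPG2, and SAR1A and SAR1B. At 50 nM the log2 ratio of COPG1 to COPG2 was 2.16 to 2.24, above the 1.89 to 2.00 in DMSO. That of SAR1A to SAR1B was 1.16 to 1.26 at 50 nM, below the 1.27 to 1.37 in DMSO.

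**Figure D5:**
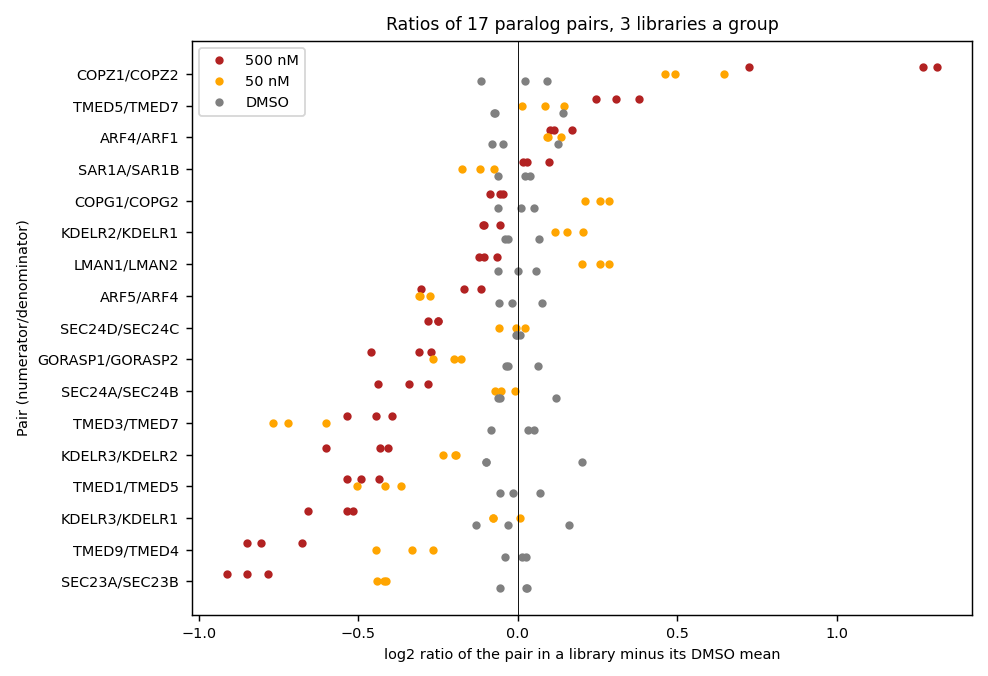
Log2 ratio of 17 paralog pairs (rows) in each library (points; x axis, log2 ratio minus the DMSO mean), with 500 nM in red above 50 nM in orange above DMSO in grey. The ratio of COPZ1 to COPZ2 lies farthest to the right at 500 nM and that of SEC23A to SEC23B farthest to the left, and the 500 nM points of the 3 overlapping pairs lie near 0.

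Traffic genes outside the 58 were read from a separate list, and the difference from the 58 was not tested. Of 82 further genes of ER to Golgi traffic, 79 were tested, of which 9 rose and 8 fell at 50 nM (11.4% and 10.1%, against 10.9% and 9.66% of all genes). At 500 nM 16 rose and 15 fell (20.3% and 19%, against 16.2% of all genes in each direction), and from 50 to 500 nM 6 rose and 10 fell (7.59% and 12.7%, against 5.65% and 7.04%). The shares at 50 nM were near those of all genes. CREB3L2 is a membrane-bound transcription factor. It held 805, 770.5 and 723 normalised counts in DMSO, 799.8, 734 and 808 at 0.5 nM and 909, 946 and 921 at 5 nM. The counts were 1405, 1312 and 1219 at 50 nM and 1324, 1333 and 1313 at 500 nM, with 0.77 (SE 0.048, adjusted p = 5.4e-27) at 50 nM and 0.79 (SE 0.048, adjusted p = 3.7e-28) at 500 nM. MIA3, which helps load collagen into COPII carriers, held 827, 804 and 814 in DMSO and 829 to 922 over the 6 libraries at 0.5 and 5 nM. The counts were 1409, 1372 and 1419.8 at 50 nM and 1211, 1099.5 and 1281 at 500 nM, with 0.78 (SE 0.047, adjusted p = 7.6e-28) and 0.55 (SE 0.047, adjusted p = 7.4e-19). BCAP31, an ER membrane chaperone and sorting factor, held 2251, 2212 and 2236 in DMSO and 2174 to 2483 over the 6 libraries at 0.5 and 5 nM. The counts were 2734, 2646 and 2819 at 50 nM and 3363, 3207 and 3355 at 500 nM, with 0.29 (SE 0.034, adjusted p = 5.2e-12) and 0.57 (SE 0.034, adjusted p = 8.1e-29). For all 3 genes the libraries at 500 nM lay above those in DMSO.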

How the data were processed

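RNA was extracted from 15 pools of MDA-MB-231 spheroids, 3 for each of 4 doses of ZJ-101 and for DMSO, selected for poly(A) and sequenced with paired ends. According to the methods and the submitters' processing notes, the authors aligned reads to hg38 with HISAT2, counted them per gene with htseq-count and tested them with DESeq2 on Galaxy. Transcripts were annotated from the GENCODE release then current, whose number, like the tools' versions and the strand setting, was not given in the sources used here. The deposited table holds a signal per gene, namely read counts divided by size factors, and 0 of its columns belong to other samples. The deposited comparison tables hold the authors' fold changes and p-values and were not used. In 14 columns, whole reads were recovered (100% of values within 0.001 of a whole multiple of the value of 1 read), and edgeR and DESeq2 used those 14. The column of DMSO replicate 3, whose step was 1.00446, was not accepted as recovered, so that TMM scaling was computed on the deposited values of all 15. The libraries held 7773325 to 10065633 reads in genes, and their depth limits mainly the low genes such as COPZ2.

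The 15233 genes averaging 10 or more were tested as log2(value + 1) with limma-trend (version 3.58.1, R 4.3.3, robust, 5 groups in 1 fit), with Benjamini-Hochberg adjustment over all of them and a threshold of 0.05. Log2 fold changes are on that scale, which understates changes of low genes. All comparisons with DMSO share the same 3 DMSO libraries. Paralog ratios were compared by a two-sided exact permutation test. The alternatives were an unfiltered table, a minimum mean of 50, TMM, a pseudocount of 5, the compared groups alone, edgeR 4.0.16, DESeq2 1.42.0, a replicate block, leaving out each library, and leaving out the 3 libraries richest in fibroblast transcripts. The scripts were tested on simulated data. Members and lists, and the last alternative, were chosen with earlier results of these data known. Genes described library by library were, in each role, the up to 4 with the smallest F-test p, any called member with an absolute log2 fold change of at least 0.5, and their paralogs. The up to 3 genes with the smallest F-test p were named from the other lists, and other genes named were chosen after their values were seen: SEC13, SEC24A, SEC24B, ARCN1, COPE, COPB1, SAR1A, SAR1B, SEC16A, TMED2, TMED10, ERGIC1, ERGIC2, MCFD2, KDELR1, KDELR2, KDELR3, GOSR1, GOLGA1, GOLGA3, GOLGA4, GOLGA5, GOLGB1 and HSPA5. Promoters were RefSeq entries of GRCh38.p14, and exon overlaps came from the reference annotation of the same build. No strand-specific counting was assumed.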

Additional observations from a re-analysis of the deposited data

How the results depend on the processing

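Of 123 calls of members (each dose against DMSO and each step between doses), 88 were kept under every alternative run, 35 were lost under some alternative and none reversed. By setting, the calls kept were 106 with no filter on low values, 123 with a mean of at least 50, 121 with TMM, 123 with a pseudocount of 5, 115 with the compared groups alone, 112 with edgeR, 96 with DESeq2, 115 without the 3 libraries richest in fibroblast transcripts, and 110 to 121 when 1 library was left out. The 1 higher member at 5 nM became 2 with a mean of at least 50 and 0 with TMM, the compared groups alone, edgeR or DESeq2, and 0 to 1 without 1 library. From 0.5 to 5 nM, the 2 higher members became 1 with no filter, DESeq2 or without the 3 libraries, and 0 to 3 without 1 library, while the 2 lower became 1 to 3. The 16 other traffic genes higher at 500 nM became 9 with DESeq2, and the 10 lower from 50 to 500 nM became 6 with DESeq2. The 8 lower at 50 nM became 5 to 8 without 1 library, with 5 without 50 nM replicate 1. The 1 gene of the KDEL-type list higher from 50 to 500 nM became 0 with no filter, edgeR, DESeq2 or without the 3 libraries, and 0 to 1 without 1 library. The cause of these changes was not tested. Without 1 library, members higher and lower were 12 to 18 and 9 to 11 at 50 nM, 10 to 13 and 24 to 27 at 500 nM, and 2 and 20 to 24 from 50 to 500 nM. All 17 paralog ratios kept their sign without 1 library and with a pseudocount of 5. TMM moved the median of all genes by less than 0.01 on the log2 scale in every comparison.

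No pairing of libraries by replicate number was seen. Of 30 same-numbered pairs, 1 had a correlation of deviations over 0.1 (-0.12 to 0.18). Of 60 differently numbered pairs, 3 did (-0.18 to 0.17). Whether same-numbered libraries were handled together cannot be told from these values. With the replicate number as a block, 18 members were higher and 11 lower at 50 nM, 13 and 26 at 500 nM, and 2 and 23 from 50 to 500 nM, and 46 were called by the F-test; 121 of 123 calls were kept, and the 2 lost were those of SEC16A. Count tests used 14 libraries, without DMSO replicate 3, and TMM used the deposited values and not recovered reads. With 3 pools a group, small differences in genes of low count were not resolved, and reads of overlapping genes on opposite strands may not be separable, since the strand setting is not given.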
